A study of Homo sapiens with 2 samples.

Results

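SWI/SNF remodelers are multi-subunit machines that spend ATP to slide or evict nucleosomes and so set which stretches of DNA transcription factors can reach. The genes examined are 10 of the subunits of these complexes, chosen by name, and all 10 were found by symbol among the 57820 genes counted: the ATPases SMARCA4 and SMARCA2, the core subunits SMARCB1, SMARCC1, SMARCC2 and SMARCE1, the BAF subunits ARID1A and ARID1B, and the PBAF subunits ARID2 and PBRM1. The rule uses names only and no measured value, though earlier results of these data were known when the genes were chosen. The data were read counts per gene from total RNA of T47D, an established human line of estrogen receptor-positive luminal breast cancer. The ESR1 gene carried Y537S, which leaves the estrogen receptor active in the absence of hormone, and the cells were transfected with 25 nM of a control siRNA in hormone-deprived medium. There was 1 group of 2 replicate libraries, with no second condition, so the values below describe this control state and no comparison between conditions was made. The labels do not say whether the mutant cells were 1 clone or the replicates separate cultures, and the spread between the libraries may be technical.

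As background, an SWI/SNF complex holds 1 ATPase, either SMARCA4 (BRG1) or SMARCA2 (BRM), on a core that includes SMARCB1, SMARCE1 and a pair of SMARCC subunits. Canonical BAF adds ARID1A or ARID1B, which exclude each other, while PBAF adds ARID2 together with the multi-bromodomain protein PBRM1. A non-canonical form lacks the ARID subunits, SMARCB1 and SMARCE1, and holds BRD9 with BICRA or BICRAL. In luminal breast cells BAF complexes are known to act at enhancers bound by FOXA1 and the estrogen receptor, and ARID1A is among the SWI/SNF genes most often mutated in cancer.

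The libraries held 41370662 reads on genes in replicate 1 and 37198274 in replicate 2. Levels are TPM, that is reads per exon base scaled to the same sum in each library, or CPM, reads scaled to library size without length. A gene was taken as detected if neither library had it under 1 CPM. All 7 luminal markers examined (KRT8, KRT18, KRT19, EPCAM, GATA3, FOXA1, ESR1) were detected, with a summed level of 4860 and 4908 CPM in replicates 1 and 2. Of 4 basal markers ACTA2 alone was detected, and the list summed to 6.55 and 4.92 CPM. No mesenchymal or fibroblast marker (0 of 5), no immune marker (0 of 3, though 85.8% of the exon bases of CD68 also belong to other genes, so its 0 reads say little) and neither of the 2 matched endothelial markers was detected, and each of these lists summed to at most 0.672 CPM in either library. In bulk RNA, fewer cells with a transcript and less of it per cell cannot be told apart.

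Since paralogs share sequence, the coding regions of the 3 paralog pairs among the members were compared to see how long an exact match between them can be. The sequences are from GENCODE release 29 transcripts with the longest coding region. Each line below shows the longest exact run in capitals, 5′ to 3′, between up to 30 flanking bases of the same gene in lower case.
SMARCA4: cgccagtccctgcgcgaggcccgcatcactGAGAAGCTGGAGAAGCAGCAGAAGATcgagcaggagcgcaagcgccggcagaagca
SMARCA2: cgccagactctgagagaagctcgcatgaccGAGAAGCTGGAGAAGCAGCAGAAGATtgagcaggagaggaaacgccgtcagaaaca
SMARCC1: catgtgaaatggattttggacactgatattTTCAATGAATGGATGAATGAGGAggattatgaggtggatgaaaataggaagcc
SMARCC2: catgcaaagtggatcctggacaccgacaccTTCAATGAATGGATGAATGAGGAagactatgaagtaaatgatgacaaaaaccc
ARID1A: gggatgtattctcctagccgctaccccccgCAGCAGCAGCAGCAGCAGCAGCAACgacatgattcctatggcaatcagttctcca
ARID1B: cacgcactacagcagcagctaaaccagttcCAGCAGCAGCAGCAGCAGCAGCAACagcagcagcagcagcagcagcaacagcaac
The longest run was 26 bases for the ATPases, 23 for the SMARCC pair and 25 for the ARID1 pair, the last within a CAG repeat. Over aligned coding bases the identity was 75.4% for SMARCA4 and SMARCA2, 73.1% for SMARCC1 and SMARCC2 and 71.9% for ARID1A and ARID1B. No stretch of 50 bases in the transcript of any of these 6 genes occurred in that of its paralog. SMARCE1 differed from the other members in this respect: 4.65% of its windows of 50 bases also occurred in transcripts of genes elsewhere in the genome, among them 5 SMARCE1 pseudogenes, against at most 0.155% in each of the other 9. Reads from such windows may have been lost in the count, so the level of SMARCE1 is uncertain.

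Every one of the 10 subunits was transcribed in both libraries, at levels that spanned an order of magnitude. In TPM the scaffold subunit SMARCC1 was highest and the BAF subunit ARID1A lowest, with PBAF-defining ARID2 next to SMARCC1 and ARID1B next to ARID1A. In CPM ARID2 was highest (log2 ratio of SMARCC1 to ARID2 -0.30), ARID1B was at position 7 of 10 and ARID1A was again lowest. Per length of 1 representative transcript, SMARCC1 and ARID2 differed by less than the replicate spread defined below (log2 0.14). The median of the members was 16.2 TPM in replicate 1 and 13.9 in replicate 2, beside 9.91 and 8.63 for the 11731 detected protein-coding genes. The mean of the 2 medians of the members, 15.0 TPM, became 53.4 when TPM was scaled over nuclear protein-coding genes only, and 25.6 per representative transcript. The first scaling multiplies every such gene by the same factor within a library. The second changed the lengths of the members alone. Neither value can therefore be set against the medians of 9.91 and 8.63. In TPM 8 of 10 members lay above the median of detected protein-coding genes, the exceptions being ARID1B and ARID1A. In CPM 9 of 10 did, as ARID1B, with the longest gene model, was at percentile 72.3 by CPM against 37.0 by TPM. Together the 10 genes had a summed level of 922 and 909 CPM in replicates 1 and 2.

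**Figure D1:**
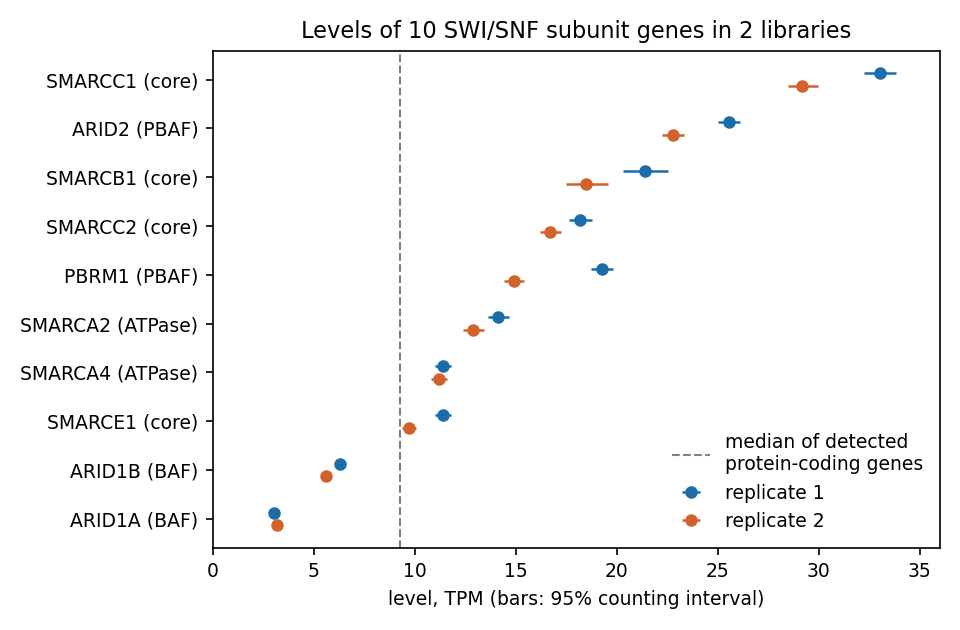
Level in TPM (x axis) of each of the 10 subunit genes (y axis, with the kind of subunit) in replicate 1 (blue) and replicate 2 (orange). Horizontal bars are 95% counting intervals and the dashed line is the median of detected protein-coding genes. SMARCC1 lies near 30 TPM, ARID1B near 6 and ARID1A near 3, left of the dashed line.

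To judge ratios between members, the spread between the libraries served as the yardstick. To be called larger than this spread, a ratio had to lie on 1 side of equality by its 95% counting interval in each library. Its mean log2 also had to pass the 95th percentile of the absolute differences between the libraries, taken over genes as abundant as the lower partner. That percentile was 0.41 on the log2 scale for genes at 10 to 30 CPM, 0.30 at 30 to 100 CPM and 0.28 above 100 CPM. It does not cover any error of a gene that both libraries share. Error from exon length, on which several ratios below turned, is of this kind.

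In TPM the ATPase genes stood close together. SMARCA4 (ENSG00000127616.13, hg19 chromosome 19, 11071598 to 11176071, plus strand, 43 exon blocks), which encodes BRG1, had 3308 and 3254 reads, or 11.4 TPM (95% counting interval 11.01 to 11.8) in replicate 1 and 11.2 (10.8 to 11.6) in replicate 2. SMARCA2 (ENSG00000080503.15, chromosome 9, 2015342 to 2193624, plus strand, 43 exon blocks), which encodes BRM, had 2673 and 2437 reads, or 14.1 TPM (13.6 to 14.7) and 12.9 (12.4 to 13.4). SMARCA2 was thus the higher of the pair in TPM in either library, and SMARCA4 made up 44.6% and 46.5% of their summed TPM, but 55.3% and 57.2% of their summed CPM. The ratio of SMARCA4 to SMARCA2 was 0.806 (0.765 to 0.848) in replicate 1 and 0.869 (0.825 to 0.917) in replicate 2. Its mean log2 of -0.26 ± 0.078 (SD, n = 2) was smaller than the replicate spread. The order of the ATPases depended on length: in CPM SMARCA4 was 1.29-fold above SMARCA2 (log2 0.36 ± 0.078), larger than that spread, because the deposited model of SMARCA4 has 10954 exon bases against 7132 for SMARCA2. With the length of 1 representative transcript per gene, 5512 and 5867 bases, the log2 ratio was 0.45, also larger than that spread.

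Among the core subunits, the scaffold gene SMARCC1 led. SMARCC1 (BAF155; ENSG00000173473.6, chromosome 3, 47626762 to 47823596, minus strand, 31 exon blocks) had 6694 and 5919 reads, or 33.0 TPM (32.3 to 33.8) and 29.2 (28.5 to 29.95). Its paralog SMARCC2 (BAF170; ENSG00000139613.7, chromosome 12, 56556767 to 56583351, minus strand, 24 exon blocks) had 4127 and 3792 reads, or 18.2 TPM (17.7 to 18.8) and 16.7 (16.2 to 17.3). SMARCC1 exceeded SMARCC2 in either library, 1.82-fold (1.75 to 1.89) in replicate 1 and 1.75-fold (1.68 to 1.82) in replicate 2. The log2 ratio of 0.83 ± 0.039 was larger than the replicate spread, and in CPM it was 0.67. With the length of 1 representative transcript, 6375 bases for SMARCC1 and 4114 for SMARCC2, it was 0.038 and no longer passed. SMARCC2 shares 514 exon bases (6.01% of its own) with MYL6, a myosin light chain gene on the other strand with 22625 and 20660 reads, and reads that fell on shared bases were not assigned to either gene.

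SMARCB1 (INI1 or SNF5; ENSG00000099956.13, chromosome 22, 24129150 to 24176703, plus strand, 9 exon blocks), the core subunit that contacts the nucleosome's acidic patch, had 1408 and 1217 reads, or 21.4 TPM (20.3 to 22.6) and 18.5 (17.5 to 19.6). It had the shortest gene model of the members, 2481 exon bases, and was at position 3 of 10 by TPM but 9 by CPM, with 34.0 and 32.7 CPM. SMARCE1 (BAF57; ENSG00000073584.14, chromosome 17, 38781214 to 38804760, minus strand, 15 exon blocks), which carries a DNA-binding HMG domain, had 3324 and 2839 reads, or 11.4 TPM (10.996 to 11.8) and 9.71 (9.36 to 10.1). In TPM SMARCB1 exceeded SMARCE1 1.89-fold (log2 ratio of SMARCE1 to SMARCB1 -0.92 ± 0.012), more than the replicate spread. In CPM the order turned and SMARCE1 was 2.35-fold above SMARCB1 (log2 1.23 ± 0.012). With 1 representative transcript each, of 6196 and 1717 bases, the log2 ratio was -0.62. Another row of the table on the same strand (ENSG00000264058.1, 193 and 156 reads) covers 974 exon bases of SMARCE1, 8.84% of its model, and reads on those bases were not assigned to either.

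The ARID subunits, which set the type of complex, differed most. ARID1A (BAF250A; ENSG00000117713.13, chromosome 1, 27022524 to 27108595, plus strand, 21 exon blocks) had 745 and 777 reads, or 3.04 TPM (2.83 to 3.27) in replicate 1 and 3.17 (2.95 to 3.40) in replicate 2. It was the lowest member in TPM, in CPM (18.01 and 20.9) and per representative transcript. Among detected protein-coding genes it lay at percentile 22.4 by TPM and 36.5 by CPM. ARID1B (BAF250B; ENSG00000049618.17, chromosome 6, 157099063 to 157531913, plus strand, 22 exon blocks) had 2733 and 2439 reads, or 6.31 TPM (6.08 to 6.56) and 5.63 (5.41 to 5.86). Its model was the longest of the members, with 16334 exon bases over 433 kb. ARID1A stood below ARID1B in either library, with ratios of 0.482 (0.444 to 0.522) and 0.563 (0.518 to 0.610). The log2 ratio of -0.94 ± 0.16 was larger than the replicate spread, and it was -1.76 in CPM and -1.43 per representative transcript, so no length choice tried here changed the order of this pair. ARID1A made up 32.5% and 36.01% of the summed TPM of the ARID1 pair.

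ARID2 (BAF200; ENSG00000189079.11, chromosome 12, 46123448 to 46301823, plus strand, 24 exon blocks), the ARID subunit of PBAF, had the most reads of any member, 8214 and 7326. Its level was 25.6 TPM (25.0 to 26.1) in replicate 1 and 22.8 (22.3 to 23.3) in replicate 2, at percentile 77.5 of detected protein-coding genes by TPM and 93.2 by CPM. ARID2 stood 7.77-fold above ARID1A (log2 ratio of ARID1A to ARID2 -2.96 ± 0.16) and 4.05-fold above ARID1B (ratio of ARID1B to ARID2 on the log2 scale -2.02 ± 0.00061). These were larger than the replicate spread, as they were in CPM, at log2 -3.35 and -1.59, and per representative transcript, at -3.34 and -1.91. Set against ARID1A and ARID1B together, 9.35 and 8.80 TPM in the 2 libraries, ARID2 was 2.73-fold and 2.59-fold higher in TPM, and 2.36-fold and 2.28-fold in CPM. This last sum was formed after the values were seen. These are levels of transcripts, and amounts of protein or of assembled complexes were not measured.

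PBRM1 (BAF180; ENSG00000163939.14, chromosome 3, 52579368 to 52719933, minus strand, 36 exon blocks), the bromodomain subunit of PBAF, had 4927 and 3817 reads, or 19.3 TPM (18.7 to 19.8) in replicate 1 and 14.9 (14.4 to 15.4) in replicate 2. This was the widest gap between the libraries among the members in TPM. PBRM1 lay below its PBAF partner ARID2 in either library, with ratios of 0.753 (0.727 to 0.781) and 0.654 (0.629 to 0.681). The log2 ratio of -0.51 ± 0.14 was larger than the replicate spread, but per representative transcript (5145 bases for PBRM1 and 8642 for ARID2) it was -0.091 and the call ended. PBRM1 shares 146 exon bases (1.51%) with UQCC5 on the other strand.

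**Figure D2:**
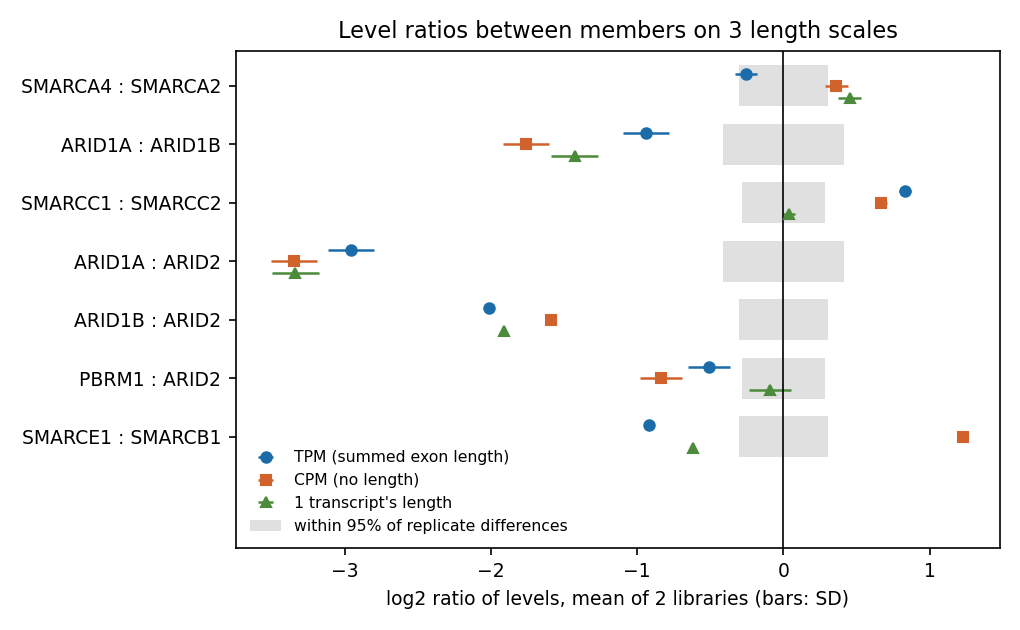
Log2 ratio of levels (x axis) for 7 pairs of members (y axis), as the mean of 2 libraries with SD bars, in TPM (blue circles), CPM (orange squares) and per length of 1 representative transcript (green triangles). Grey bars reach to the 95th percentile of differences between the libraries for genes as abundant as the lower partner. The 3 pairs of ARID genes stay left of the grey bars on every scale, the ATPase pair and SMARCE1 : SMARCB1 change side, and SMARCC1 : SMARCC2 and PBRM1 : ARID2 enter the grey bar with the transcript's length.

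The order of the members by mean TPM was SMARCC1 (31.1 ± 2.72, SD, n = 2), ARID2 (24.2 ± 1.96), SMARCB1 (20.0 ± 2.06), SMARCC2 (17.5 ± 1.05), PBRM1 (17.1 ± 3.07), SMARCA2 (13.5 ± 0.888), SMARCA4 (11.3 ± 0.136), SMARCE1 (10.5 ± 1.18), ARID1B (5.97 ± 0.483) and ARID1A (3.11 ± 0.0911). These SDs include the lower TPM of replicate 2 seen in the median of all detected protein-coding genes (9.91 against 8.63). A small SD in TPM is therefore not a sign of reproducibility. SMARCA4 and ARID1A, with the smallest SDs, were higher in replicate 2 in the test between the libraries below. SMARCC1, with an SD of 2.72, hardly differed there. Of the 9 steps in this order, those from SMARCC1 to ARID2 (log2 0.36 ± 0.0088), PBRM1 to SMARCA2 (0.33 ± 0.17), SMARCE1 to ARID1B (0.82 ± 0.045) and ARID1B to ARID1A exceeded the replicate spread. The steps from ARID2 to SMARCB1 (log2 0.28 ± 0.032), SMARCB1 to SMARCC2 (0.19 ± 0.062), SMARCC2 to PBRM1 (0.042 ± 0.17), SMARCA2 to SMARCA4 and SMARCA4 to SMARCE1 (0.10 ± 0.14) did not. In CPM ARID2 was 5.93-fold above SMARCB1 (log2 2.57), more than the spread, while SMARCB1 to SMARCC2 turned to -1.60. The step from PBRM1 to SMARCA2 rested on replicate 1, since from replicate 2 alone it was 0.21. In CPM the order began with ARID2, SMARCC1 and PBRM1 and ended with SMARCA2, SMARCB1 and ARID1A. ARID1A was last and SMARCC1 and ARID2 were among the first 3 on each of the 4 scales tried.

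The 2 libraries were next set against each other gene by gene, to show which members varied beyond counting error. An exact binomial test (two-sided, against the share predicted by library sizes scaled with TMM factors, Benjamini-Hochberg adjustment over 14668 genes) passed for 40.1% of all genes tested, 20.4% being higher in replicate 1 and 19.6% in replicate 2. Among the members 3 of 10 passed, 1 higher in replicate 1 and 2 higher in replicate 2, a share no larger than that background. The fold differences given next use the same scaled library sizes, so they differ slightly from the ratios of the CPM beside them. PBRM1 had 119 CPM in replicate 1 and 103 in replicate 2 and was 1.14-fold higher in replicate 1 (exact binomial test, adjusted p = 1.07e-08). SMARCA4 had 79.96 and 87.5 CPM and was 1.11-fold higher in replicate 2 (exact binomial test, adjusted p = 0.000118). ARID1A had 18.01 and 20.9 CPM and was 1.18-fold higher in replicate 2 (exact binomial test, adjusted p = 0.00546). With all counts halved, as if mates of a pair had been counted one by one, PBRM1 and SMARCA4 passed and ARID1A did not. In that setting 3142 of all 14668 genes passed. The test knows counting error alone: the PBRM1 difference was larger than that of 85.7% of genes above 100 CPM, the ARID1A difference than that of 75.9% of genes at 10 to 30 CPM and the SMARCA4 difference than that of 69.1% of genes at 30 to 100 CPM, and none reached the 95th percentile of its class.

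The other 7 members gave adjusted p from 0.176 for SMARCC2 to 0.994 for SMARCC1 in the same exact binomial test. SMARCC1 had 162 and 159 CPM, ARID2 199 and 197 CPM, and ARID1B 66.1 and 65.6 CPM in replicates 1 and 2. The median log2 difference of the members, replicate 2 minus replicate 1, was 0.012, beside 0.00039 over all genes tested. In TPM 9 of 10 members were lower in replicate 2, whereas in CPM 6 of 10 and after scaling by library size factors 4 of 10 were. The median of all detected protein-coding genes was lower in replicate 2 in TPM as well, as given above.

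**Figure D3:**
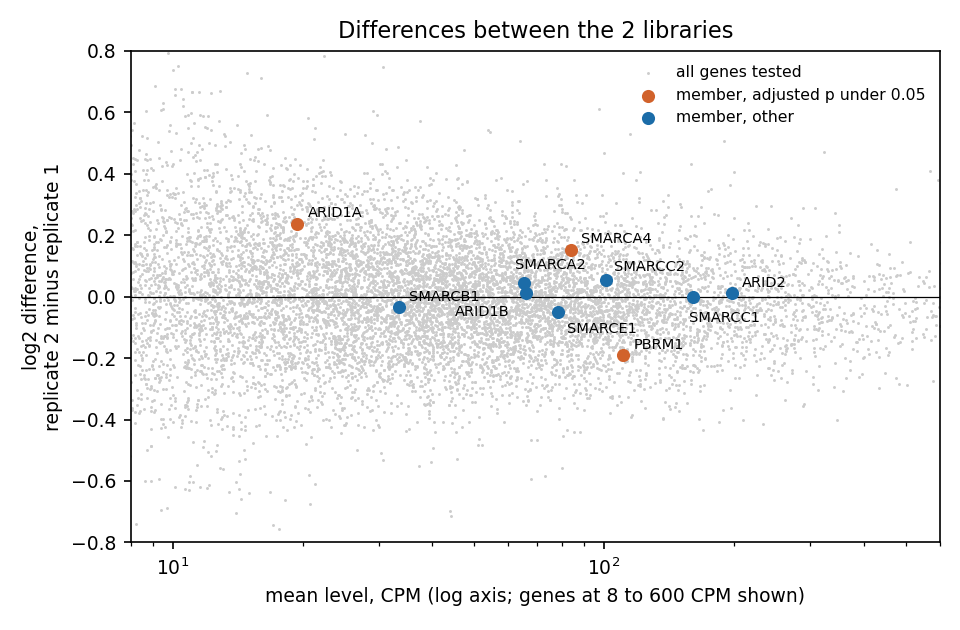
Log2 difference between the libraries, replicate 2 minus replicate 1 (y axis), against mean CPM on a log axis (x axis), for all genes tested in the range shown (grey) and the 10 members (orange where adjusted p was under 0.05, blue otherwise). PBRM1 at -0.19 lies below zero and SMARCA4 at 0.15 and ARID1A at 0.24 above it, all within the cloud of other genes.

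The other subunits of the complexes gave the setting for these levels. Of 18 further subunit genes 16 were detected. The median over all 18, including those not detected, was 11.1 and 10.2 TPM in replicates 1 and 2. That of the 10 members, all detected, was 16.2 and 13.9. The highest was SMARCD2, which encodes a form of the BAF60 subunit, with 123 and 105 TPM, above every one of the 10 members. Its paralog SMARCD1 had 17.4 and 15.1 TPM and SMARCD3 1.05 and 0.965. ACTL6A (BAF53A), the actin-related subunit of dividing cells, had 90.8 and 75.8 TPM, while its neuronal counterpart ACTL6B had no reads (3 reads, the limit that a count of 0 allows, equal 0.0725 and 0.0806 CPM). SS18, known for its fusion in synovial sarcoma, had 30.7 and 25.1 TPM and its paralog SS18L1 9.94 and 8.93. In the DPF family of double PHD finger subunits of BAF, DPF2 had 14.3 and 12.2 TPM, DPF1 1.49 and 1.11, and DPF3 had 4 and 0 reads. The BCL7 genes were close together, with means of 11.1 ± 1.10 TPM for BCL7A, 13.9 ± 0.819 for BCL7B and 11.7 ± 0.102 for BCL7C.

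Subunits that mark PBAF and the non-canonical complex lay below ARID2 in TPM. The PBAF subunits BRD7 and PHF10 had 13.4 and 11.3 TPM and 10.5 and 8.37 TPM in replicates 1 and 2. Of the exon bases of BRD7, 42.4% also belong to other rows, so its level may be underestimated. BRD9, which marks the non-canonical complex, had 10.4 and 9.95 TPM, its partner BICRAL 4.77 and 3.998, and BICRA 0.428 and 0.417. In the test between the libraries 6 of the 16 subunits tested passed, 4 higher in replicate 1 and 2 higher in replicate 2, again near the 40.1% of all genes.

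**Figure D4:**
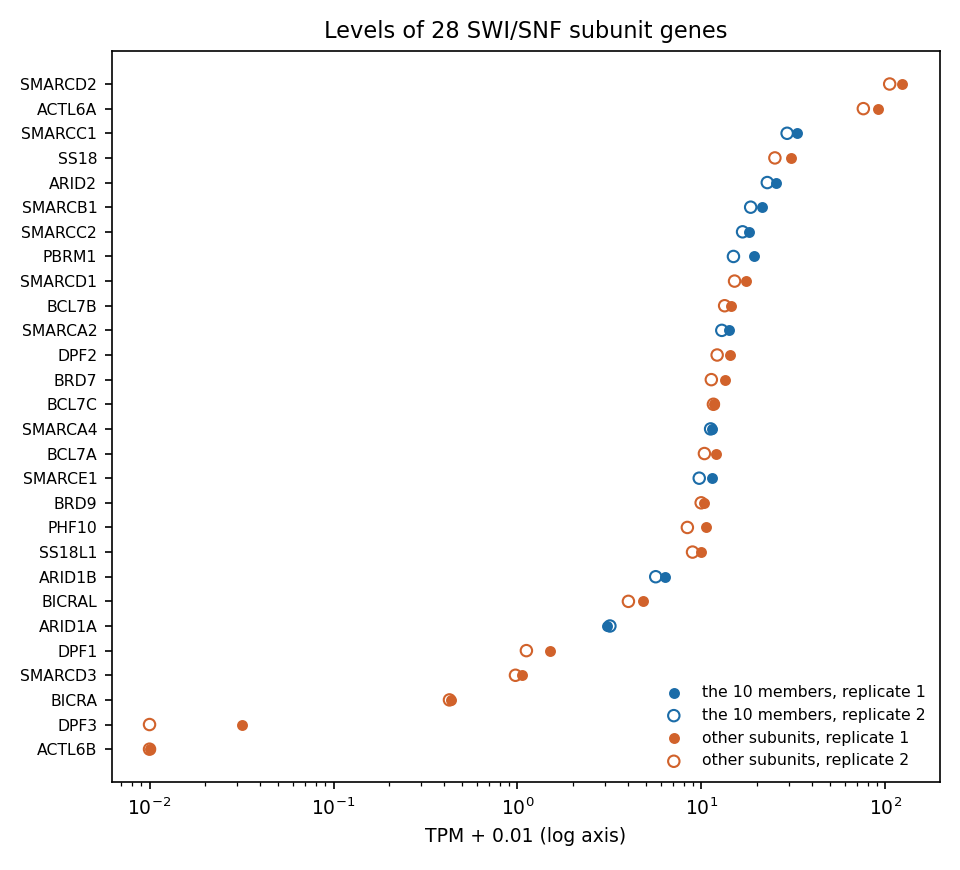
Level of 28 SWI/SNF subunit genes (y axis, ordered by mean) as TPM + 0.01 on a log axis (x axis), with replicate 1 filled and replicate 2 open. The 10 members are blue and 18 other subunits orange: SMARCD2 and ACTL6A lie above all members, and DPF1, SMARCD3, BICRA, DPF3 and ACTL6B lie below ARID1A.

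The ATPases of other remodeler families were measured beside SMARCA4 and SMARCA2. All 17 were detected, with a median of 17.5 and 14.0 TPM. In the test between the libraries 12 of the 17 passed, 7 higher in replicate 1 and 5 higher in replicate 2. This was a larger share than the 40.1% of all genes tested, in a test that knows counting error alone. The shares were not matched for abundance. All 17 ATPases were above 10 CPM, whereas the genes tested included 2700 at 1 to 3 CPM and 2442 at 3 to 10. Such a test passes less readily for genes with few reads, so the larger share does not show that these ATPases varied unusually. The ISWI ATPase SMARCA1 was highest with 66.8 and 64.3 TPM, followed by the NuRD ATPases CHD4 with 54.9 and 48.0 and CHD3 with 32.8 and 31.3. In CPM the order of these 3 turned, with 263 and 256 for CHD4, 205 and 218 for CHD3 and 175 and 188 for SMARCA1. In TPM SMARCA4 and SMARCA2 lay below the median of that list in each library, and their summed TPM, 25.5 in replicate 1 and 24.1 in replicate 2, stood below the TPM of SMARCA1, CHD4 or CHD3 alone.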

How the data were processed

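Per the file headers, the deposited values are raw counts per gene that the authors made with featureCounts 2.0.2 on the exons of GENCODE release 19; no strand, pair, multimapping or overlap option was set, so reads on bases shared by genes were not counted and antisense reads cannot be told apart. HISAT2 and hg19 are named in the submitters' processing notes. The 2 columns were assigned by the line, the mutated residue and the replicate in their names, since their names do not repeat the siRNA. Another 8 columns of per-sample values, in this table and a second one, match no sample described here and were not used; the second table gave identifiers and gene lengths only, which equalled those used for all 10 members.

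CPM, and TPM with the deposited exon lengths, were computed over all 57820 genes. Symbols came from the supplied identifier table (51996 matched, 89.9%; the rest held 9.83% and 11.6% of the reads), and gene types and transcripts from GENCODE release 29, by identifier. PECAM1 was not matched. Exon bases shared between rows were computed from the deposited coordinates. A representative transcript was that with the longest coding region, then the longest. With 1 group no edgeR or DESeq2 contrast was possible; edgeR 4.0.16 gave TMM factors and DESeq2 1.42.0 alternative size factors, and the exact binomial tests and intervals came from scipy 1.17.1. Genes at 1 CPM or more on average were tested, and log2 differences between libraries used 0.5 added reads. The test was run on simulated counts with 200 changed genes. Those counts held counting error alone, unlike the real libraries, so that run does not show the error rate of the test here. Intervals are exact Poisson or conditional binomial 95% intervals; like the floor of 3 reads and the exact p-values, they hold counting error alone, because without molecular identifiers a read need not be a separate molecule. The libraries were kept as 2 replicates (chi-square of 22.5 per gene).

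Members and lists were chosen with earlier results of these data known. Named were all 10 members, all 18 other subunits, the 3 highest of 17 other ATPases and any under 1 CPM, and rows sharing at least 50 exon bases with a member. Scaling, length, filter, halved counts and single libraries were alternatives.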

Additional observations from a re-analysis of the deposited data

How the results depend on the processing

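The ratios of ARID1A to ARID1B, ARID1A to ARID2 and ARID1B to ARID2 kept their direction and their side of the threshold under every alternative run. Without length scaling (CPM), the log2 ratio turned to 0.36 for SMARCA4 to SMARCA2 and 1.23 for SMARCE1 to SMARCB1, and among neighbours in the order to -0.30 for SMARCC1 to ARID2, -1.60 for SMARCB1 to SMARCC2 and -0.13 for SMARCC2 to PBRM1; SMARCE1 to ARID1B, at 0.25, no longer passed, and ARID2 to SMARCB1, at 2.57, now did. The length of 1 representative transcript, chosen after seeing the data, gave 0.45 for SMARCA4 to SMARCA2 and -0.33 for SMARCB1 to SMARCC2. Both turned from the main values and passed the threshold. At that length 0.038 for SMARCC1 to SMARCC2, -0.091 for PBRM1 to ARID2 and 0.14 for SMARCC1 to ARID2 no longer passed. These settings differ from the main one in length alone. With exon bases that no other row covers, SMARCA4 to SMARCE1 turned to -0.029. From single libraries SMARCA4 to SMARCA2 ranged from -0.31, past the threshold, to -0.20, and SMARCC2 to PBRM1 from -0.081 to 0.16. The median of the members, 15.0 TPM, was 53.4 when TPM was scaled over nuclear protein-coding genes only and 25.6 per representative transcript. The median of other genes was not recomputed on either scale, so these values do not show a changed standing of the members. With halved counts 3142 of 14668 genes differed between the libraries, against 5879, and 2 of 10 members against 3. The count of members stayed at 3 with DESeq2 size factors (5873 of 14668 genes), total reads (5928 of 14668) and no filter (6470 of 31838). The share of all genes that passed was thus lower with halved counts and with no filter. No paired analysis was possible because there was 1 group. The 2 libraries of 1 condition limit the precision of every value, and a level between genes depends on the gene model.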
